A study of Mus musculus with 6 samples.

Results

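The response of visceral and subcutaneous white fat to the loss of Kdm4b was compared gene by gene, as the knockout change in epididymal fat minus the knockout change in subcutaneous fat. The comparison used 4 of the 6 arrays in the series, 1 each for epididymal wild-type (WT), epididymal knockout (KO), subcutaneous WT and subcutaneous KO fat, and left out the 2 brown fat arrays. All mice were male, 2 months old, kept on chow at room temperature and fasted for 6 hours before tissue was taken. The KO mice lacked Kdm4b in the whole body and the WT mice served as controls, and the question behind the arrays is what lies behind the obesity of mice without Kdm4b. How many mice each sample stands for is not in the labels, nor is whether RNA was pooled, whether both depots came from the same mice, or which exons were deleted. Whole fat was extracted, so adipocytes and all other cells of the depot contributed RNA.

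Kdm4b is an enzyme that takes methyl groups off lysines of histone H3 and thereby bears on how readily chromatin is transcribed. Epididymal fat is a visceral depot that lies within the abdomen and is covered by mesothelium. Subcutaneous fat lies under the skin, can hold lymph nodes, and forms thermogenic beige adipocytes more readily in mice. Both depots store triglyceride and secrete hormones such as leptin, and both contain macrophages, fibroblasts and adipocyte precursors whose number and activity change as fat expands.

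Values are MAS5 signals, a linear brightness per probe set. A signal of 63 was taken as the floor, lower signals were raised to it before taking log2, and each of 18193 genes was represented by its brightest probe set (mean of log2 signals over the 4 arrays). A gene was taken as measured in a depot if either array of that depot lay above the floor, which gave 13255 genes in epididymal fat, 13917 in subcutaneous fat and 12824 in both. Between 12661 and 13644 genes lay above the floor on an array, with the highest number in subcutaneous KO. Signals are given in the order WT to KO, a log2 change is KO minus WT, and where 1 of the arrays did not exceed the floor the fold is a lower bound, written "at least". With 1 array per depot and genotype there was no replicate, so neither a change within a depot nor the difference between depots has a p-value. The only error within an array pair is the disagreement between probe sets of the same gene, an SD of 0.30 for the epididymal change, 0.31 for the subcutaneous change and 0.40 for their difference on the log2 scale (5166 genes), and it leaves out the spread between mice.

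The mesothelial and lymphocyte markers named here went with the depot labels, and not every list did. Adipoq, which encodes adiponectin, had signals of 34805 to 31813 in epididymal and 27392 to 26704 in subcutaneous fat, and all 26 adipocyte genes measured were above the floor on all 4 arrays. The mesothelial gene Upk3b had signals of 4839 to 4651 in epididymal fat and of 110.2 to 4.4 in subcutaneous fat, and Lrrn4 had 1074 to 796 and 64.2 to 70. The lymphocyte genes Ms4a1 and Cd3g were brighter in subcutaneous fat, at 5199 to 4862 and 1440.4 to 1053, against 409 to 268 and 85.1 to 54.5 in epididymal fat. All 10 measured seminal vesicle and epididymis genes were brighter in subcutaneous than in epididymal fat in WT, and 0 of 10 in KO. The thermogenic list had a median gap (epididymal minus subcutaneous) of 0.44 in WT and -0.37 in KO. In such bulk samples, fewer cells of a type and less RNA per cell cannot be told apart.

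Kdm4b itself, measured by 1 probe set, was lower in both KO arrays. The epididymal arrays read 227 to 188, a log2 change of -0.27, and the subcutaneous ones 272 to 157, a change of -0.80. The epididymal change lay within the SD between probe sets and the subcutaneous one did not. A probe set outside the deleted part would check nothing, and the labels do not place the deletion. Of the close relatives, Kdm4a changed by 0.18 and 0.14 and Kdm4c by -0.29 and -0.35 in epididymal and subcutaneous fat. Among the other histone demethylase genes Phf8, which encodes another histone demethylase, went from 1156 to 1842 and from 913 to 1436, changes of 0.67 and 0.65. All 19 measured members of the demethylase list had a difference between depots of less than 2-fold.

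Across genes, the depots answered in part alike and in part apart. In epididymal fat 116 genes (0.875% of those measured) differed upward in KO by 2-fold or more and 195 (1.47%) downward. In subcutaneous fat 301 (2.16%) were higher and 104 (0.747%) lower. These splits moved with the scaling, to 163 higher and 158 lower in epididymal and 208 and 122 in subcutaneous fat after quantile normalization, and to 177 and 169 and to 165 and 146 after centring each array on its median. The log2 changes of the 12824 genes measured in both depots correlated with Pearson r = 0.22 and Spearman rho = 0.24, which is a correlation across genes that share their 4 arrays, not across replicates. Genes at least 2-fold higher in epididymal KO were mostly higher in subcutaneous KO too, 95 of 114 (83.3%, against 52.6% of all genes). Their median subcutaneous change was 0.68. Genes at least 2-fold lower in epididymal KO were split, with 90 of 159 lower in subcutaneous KO (56.6%, against 47.4% of all genes). Their median subcutaneous change was -0.06. Of the 257 genes at least 2-fold higher in subcutaneous KO, 152 were also higher in epididymal KO (59.1%, against 46.8% of all genes). Of the 91 lower ones, 63 were also lower (69.2%, against 53.2% of all genes).

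At 2-fold or more in both depots, 32 genes were higher (0.25% of the genes measured in both), 10 were lower (0.078%), 12 were lower in epididymal and higher in subcutaneous KO (0.0936%), and 0 (0%) were higher in epididymal and lower in subcutaneous KO. The knockout change was at least 2-fold more positive in epididymal fat for 196 genes (1.53%) and at least 2-fold more negative for 463 (3.61%), so 29.7% of these genes lay on the positive side. That split turned with the scaling of the arrays, to 51.9% on the positive side after quantile normalization and 59.7% after centring each array on its median. Centring moved the median difference of all genes from -0.04 to 0.18, against -0.02 after quantile normalization, and gene lists are therefore read against the median of all genes.

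**Figure D1:**
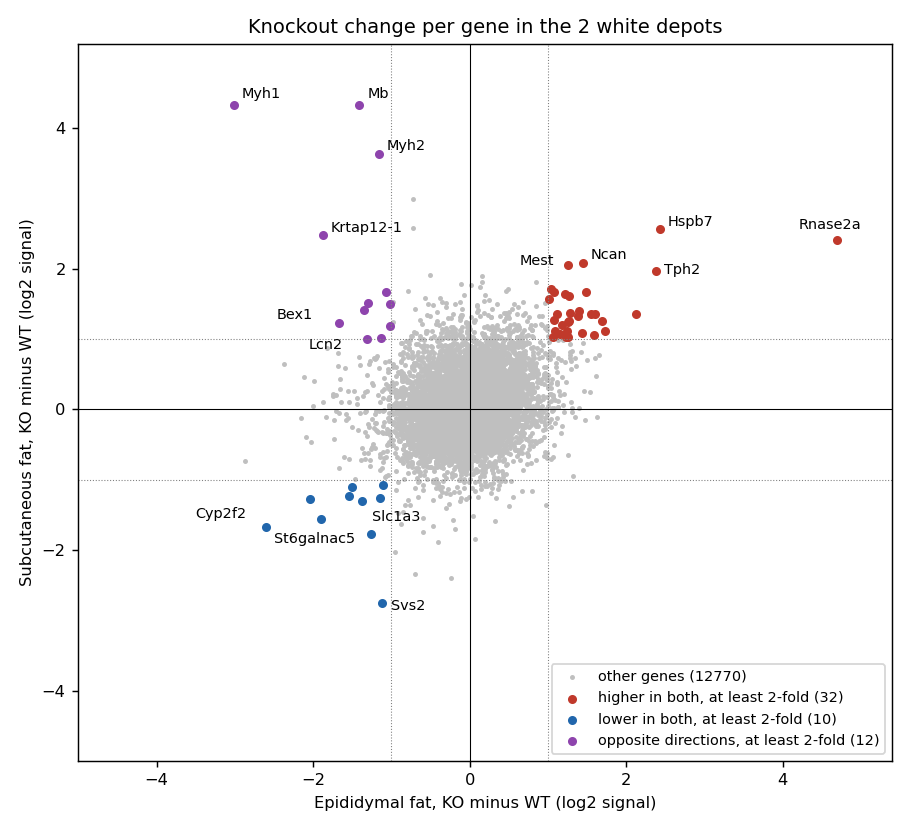
Each point is 1 of 12824 genes measured in both white depots, with the KO minus WT log2 signal in epididymal fat on the horizontal axis and in subcutaneous fat on the vertical axis, and dotted lines mark 2-fold. The 32 genes higher in both (red) and 10 lower in both (blue) lie toward opposite corners, the 12 oppositely changed genes (purple) all lie at the upper left, and no gene lies past 2-fold at the lower right.

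The genes higher in both depots included secreted products of adipocytes. Lep, which encodes the satiety hormone leptin, had signals of 6063 to 14421 in epididymal and 3858 to 9178 in subcutaneous fat, 2.38-fold in each. Both KO arrays were brighter than both WT arrays. Sfrp5, an adipocyte-secreted inhibitor of Wnt signalling, went from 1131 to 3295 and from 616 to 1575, changes of 1.54 and 1.35. A second Sfrp5 probe set was higher in both depots too, by 2.39 and 0.95. Mest, a paternally expressed imprinted gene whose level follows adipocyte enlargement, went from 2642 to 6314 in epididymal and from 668 to 2769 in subcutaneous fat, 2.39-fold and 4.14-fold. Its subcutaneous KO signal was only just above its epididymal WT signal, so both KO arrays were brighter than both WT arrays by a narrow margin. Npr3, the clearance receptor of natriuretic peptides, which was named after its values were seen, changed by 0.49 and 1.12. Nppb, the gene of a natriuretic peptide, was at or under the floor in both WT arrays and reached 132 in epididymal and 201 in subcutaneous KO, at least 2.10-fold higher in the first and at least 3.19-fold in the second. The oxytocin receptor gene Oxtr went from 769 to 1575 and from 180.2 to 588, 2.05-fold and 3.27-fold.

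Rnase2a, a ribonuclease gene of the family that eosinophils secrete, was also higher in both depots. Of the shared genes it had the widest difference between depots, 2.28. The epididymal arrays read 155 to 4016, 25.9-fold, and the subcutaneous ones 60.9 to 335, at least 5.32-fold. The epididymal KO array stood far above the other 3. The other 6 measured genes of the eosinophil and type 2 list differed by between -0.44 and 0.33 in either depot. Hspb7, a small heat shock protein gene best known from heart and muscle, went from 402 to 2162 and from 54.8 to 373, changes of 2.43 and at least 2.57. Myl4, a myosin light chain gene of atrial and embryonic muscle, went from 534 to 1283 and from 411 to 982, 1.26 in epididymal and 1.26 in subcutaneous fat. The skeletal muscle list had a median of -0.86 in epididymal KO, where both genes were higher, and of 0.19 in subcutaneous KO. The part of muscle RNA in the 2 genes was not tested.

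Cdkn1a, Tnfrsf12a and S100a8, of growth arrest, cytokine signalling and neutrophils, were also among those higher in both. The cell cycle inhibitor gene Cdkn1a, a target of p53, went from 909 to 2943 and from 627 to 1504, 3.24-fold and 2.40-fold. Tnfrsf12a, which encodes the receptor that binds TWEAK, went from 212 to 645 and from 141 to 362, and its second probe set was higher by 1.17 and 1.41. S100a8, which encodes a subunit of the neutrophil protein calprotectin, went from 712 to 1854 and from 576 to 1451. Its probe set can cross-hybridise. Of the 7 neutrophil genes measured, 2 were higher in both depots, S100a8 and the dim Camp, an antimicrobial peptide gene that read 58.5 to 66.2 and 14.3 to 125. Prtn3, the gene of a neutrophil granule protease, was lower in both depots and Lcn2, which encodes an iron-sequestering protein of neutrophils and epithelium, was lower in epididymal and higher in subcutaneous KO. For each of Cdkn1a, Tnfrsf12a and S100a8, both KO arrays were brighter than both WT arrays.

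Tph2, Htr1b, Ncan and Plppr4, all best known from neurons, were also higher in both depots and had low signals in WT. Tph2, the gene of neuronal tryptophan hydroxylase, went from 42.3 to 328 and from 80.9 to 317, at least 5.21-fold and 3.92-fold higher. Htr1b, a serotonin receptor gene, went from 86.6 to 228 and from 119 to 313, changes of 1.39 and 1.40. Ncan, the gene of a proteoglycan of brain matrix, changed by at least 1.45 and by 2.09, and Plppr4, a phospholipid phosphatase-related gene of neurons, by 2.12 and 1.36. These 4 genes had KO signals of 172 for Ncan at the lowest and 453 for Plppr4 at the highest. When the probe sets of each gene were averaged, Htr1b, Ncan, Myl4, Oxtr and Fdps no longer passed 2-fold in both depots. Lipf, Spaca4 and Fbxw22, a lipase, a sperm membrane protein and an F-box protein gene, were at or under the floor in epididymal WT and had KO signals between 151 and 201. These genes were put together after their values were seen and form no list with a test.

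The shared genes were picked for passing 2-fold in the same direction in both depots, so how close their 2 changes lie is a description. Over all genes measured in both depots, the difference between depots had an SD of 0.48. The depots differed by no more than the SD between probe sets (0.40) for 20 of the 32 higher and 6 of the 10 lower genes, and the differences ranged from -0.79 (Mest) to 2.28 (Rnase2a) and from -0.93 (Cyp2f2) to 1.64 (Svs2). Of the 32 higher genes 21 were above the floor on all 4 arrays, as were 7 of the 10 lower ones. Under quantile normalization 28 of the 32 and 9 of the 10 were kept, and with a floor of 120 there were 19 and 7. With the mean of all probe sets 24 and 7 were kept. After median centring 23 and 10 were kept, and Fdps, Mogat2 and Mtarc1, a molybdenum enzyme gene of the mitochondrial surface that went from 1126 to 3029.7 and from 628 to 1329, were among those lost.

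**Figure D2:**
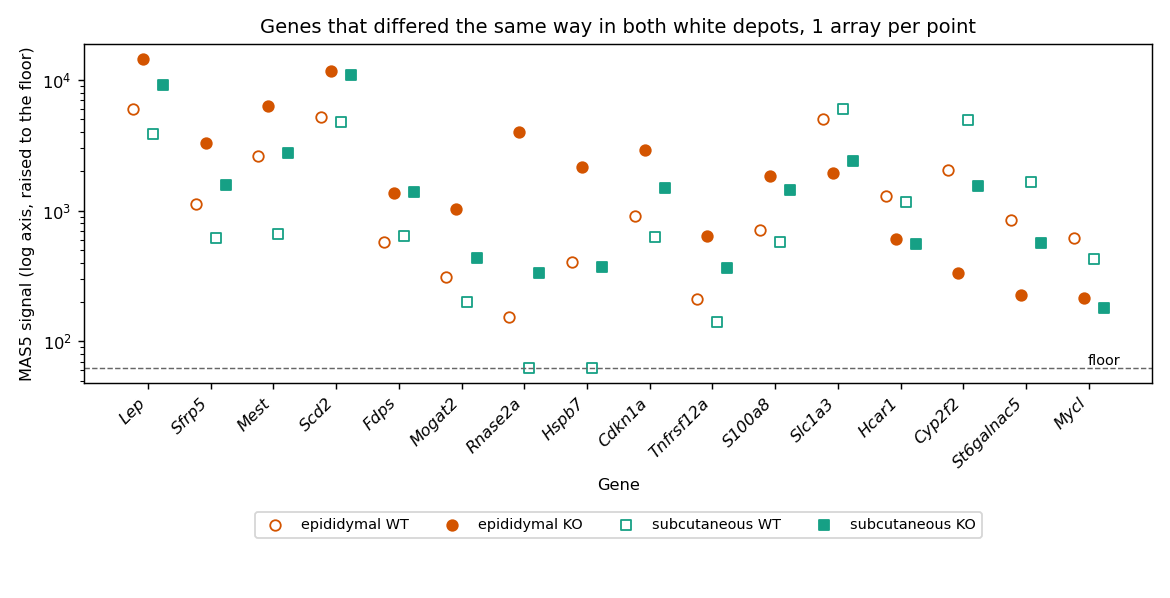
MAS5 signals on a log axis for 16 genes that differed at least 2-fold the same way in both white depots, with 1 array per point, circles for epididymal and squares for subcutaneous fat, and filled symbols for KO. For each gene the filled symbol lies above the open one of its depot in the 11 genes from Lep to S100a8 and below it in the 5 genes from Slc1a3 to Mycl, and the subcutaneous WT points of Rnase2a and Hspb7 lie at the floor of 63.

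The genes lower in both depots included a receptor of adipocytes. Hcar1, which encodes the lactate receptor that restrains lipolysis, went from 1308 to 608 in epididymal and from 1166 to 552 in subcutaneous fat, changes of -1.11 and -1.08. Both KO arrays were dimmer than both WT arrays. Slc1a3, a glutamate and aspartate transporter gene, went from 5017 to 1941 and from 5967 to 2419, 2.58-fold and 2.47-fold lower, and its 4 other probe sets changed by -2.02 to -0.80 in epididymal and by -1.32 to -0.59 in subcutaneous fat. Cyp2f2, a cytochrome P450 gene, went from 2034 to 335 and from 4939 to 1555, 6.07-fold and 3.18-fold lower. St6galnac5, a sialyltransferase gene, went from 848 to 228 and from 1664 to 565, and a second probe set changed by -1.84 and -1.59. For Cyp2f2 and St6galnac5 the depots differed within each genotype, with subcutaneous fat the brighter. Mycl, a gene of the Myc family of transcription factors, changed by -1.54 and -1.23, and Prtn3 by -1.15 and -1.26. Svs2, the gene of a secreted protein of the seminal vesicle, was also lower in both, at 523 to 241 and 898 to 133. When the probe sets of each gene were averaged, Mycl and Svs2 no longer passed 2-fold in both depots. Svs2 was also lost after quantile normalization. Of the 10 measured seminal vesicle and epididymis genes, 8 were lower in both depots, against 30.1% of all genes. The other 2 were higher in epididymal and lower in subcutaneous KO.

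A limma fit with depot and genotype as terms was the only test these arrays allow, because the depots then stand in for replicates and the difference between depots is the single residual degree of freedom. It called 0 of 13312 genes higher (0%) and 0 lower (0%) at an adjusted p under 0.05, with a smallest adjusted p of 0.451 and with 684 genes on the higher and 632 on the lower side when p was left unadjusted at 0.05. After median centring the same fit called 92 genes higher and 54 lower. When the variance was allowed to follow the signal on the deposited scale, 73 genes rose (0.548%) and 70 fell (0.526%). That fit called 21 of the 32 genes higher in both and 9 of the 10 lower in both, but membership used the same changes, so these counts are a description. Its smallest adjusted p was 0.000818, reached by Lep, Sfrp5 (mean log2 change 1.45 ± 0.12 SE), Scd2 (1.18 ± 0.10), Hspb7 and Slc1a3 (-1.34 ± 0.10), each in the same direction in 2 of 2 depots. Phf8 was higher with an adjusted p of 0.0326 in the limma fit with the trend, and Kdm4b was not called (adjusted p = 0.427). Every limma p-value, here and below, sets the mean change against the disagreement between 2 depots. Such a p-value does not measure the spread between mice, and the depots may come from the same mice. The genes cited below with the trend were not called without it on the deposited scale.

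Cholesterol synthesis had the largest share of members higher in both depots among the lists with at least 7 measured genes, with 15 of 20 measured members higher in both KO arrays, against 29.5% of all genes, and 0 lower in both, against 30.1%. Its median log2 change was 0.35 in epididymal and 0.61 in subcutaneous fat, beside -0.02 and 0.02 for all genes, and the medians stayed above those of all genes by at least 0.35 and 0.39 under every floor, scaling and choice of probe set tried. The median difference between depots was -0.12, which turned to 0.11 after median centring. The windows before the starts of Hmgcs1, Idi1 and Lss are shown because all 3 genes were higher in both depots and because CCAAT, read on either strand, was frequent in the list. The 250 bases before each RefSeq start (GRCm38.p6) follow, in lower case, with CCAAT on either strand (ATTGG when reversed) and CACCCCA in capitals. They lie at chr13:119690101-119690350 (plus strand) for Hmgcs1, chr13:8885356-8885605 (plus strand) for Idi1 and chr10:76531355-76531604 (plus strand) for Lss.
Hmgcs1: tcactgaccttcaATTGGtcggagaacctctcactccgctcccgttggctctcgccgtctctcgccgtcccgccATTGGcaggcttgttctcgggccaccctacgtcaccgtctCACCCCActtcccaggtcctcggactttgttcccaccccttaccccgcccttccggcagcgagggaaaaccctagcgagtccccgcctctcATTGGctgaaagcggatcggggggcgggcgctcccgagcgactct
Idi1: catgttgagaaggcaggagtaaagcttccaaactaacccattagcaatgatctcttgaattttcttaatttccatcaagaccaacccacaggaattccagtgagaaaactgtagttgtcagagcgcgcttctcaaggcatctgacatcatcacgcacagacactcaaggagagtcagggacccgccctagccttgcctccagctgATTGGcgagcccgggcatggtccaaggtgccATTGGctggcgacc
Lss: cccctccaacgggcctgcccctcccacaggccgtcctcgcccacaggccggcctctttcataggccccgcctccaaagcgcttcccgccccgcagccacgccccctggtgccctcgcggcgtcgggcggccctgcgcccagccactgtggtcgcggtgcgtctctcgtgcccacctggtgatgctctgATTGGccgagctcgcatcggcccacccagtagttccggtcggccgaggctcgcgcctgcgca

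CCAAT is the core of the site of the factor NF-Y, and CACCCCA belongs to a sterol element read by SREBP proteins. Of the 17 list genes with a window in the RefSeq table, 16 held CCAAT on either strand, against 37.5% of 27025 genes with a window of this length. CACCCCA was in 3 of 17, against 7.64%. The motifs were chosen with the expression values known, a match of letters is a description and not a binding site, and every capital run of that motif in the 3 windows is the reversed form ATTGG. Fdps, Scd2 and Sqle are named only.

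Along the pathway, the early enzyme gene Hmgcs1, which condenses acetyl units, went from 5922 to 10042 in epididymal and from 5415 to 6989.9 in subcutaneous fat, changes of 0.76 and 0.37. The mevalonate kinase genes were higher in subcutaneous KO, Mvk by 0.62 and Pmvk by 0.93, and differed by -0.11 and 0.35 in epididymal KO. Idi1, the isomerase of isoprenoid units, went from 1046 to 1509 and from 897 to 1481, changes of 0.53 and 0.72. Fdps, which makes farnesyl diphosphate, had the largest shared change, from 573 to 1362 and from 639.8 to 1392, 2.38-fold and 2.18-fold. It did not pass 2-fold in both depots after median centring or with the mean of all probe sets. Sqle, the squalene epoxidase gene, went from 270.4 to 615 and from 219 to 435, 2.28-fold and 1.99-fold. Lss, the lanosterol synthase gene downstream of it, changed by 0.61 and 0.69. Fdps and Sqle were the only 2 of the 20 called by limma with the trend (adjusted p = 0.00547 and 0.0393, higher in 2 of 2 depots).

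The late steps did not all lean to the same depot, with the genes grouped here after their values were seen. The SD between probe sets for a difference between depots was 0.40. Median centring moved the median difference of all genes from -0.04 to 0.18. Sc5d, Cyp51 and Tm7sf2, enzymes that convert lanosterol to cholesterol, changed by 0.20, 0.36 and 0.16 in epididymal and by 0.72, 0.79 and 0.61 in subcutaneous KO. Hsd17b7, Dhcr7 and Ebp, enzymes of the same stretch, had the larger change in epididymal KO, at 0.79, 0.53 and 0.34 against 0.55, 0.18 and -0.07. The widest difference of the list was that of Stard4. This cholesterol transport protein gene changed by -0.14 and 0.76, but its second probe set gave a difference of 0.37. The sterol sensor gene Insig1 changed by 0.41 and 0.12, and the regulator gene Srebf2 by 0.11 and 0.13.

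Fatty acid and triglyceride synthesis genes were mixed, with shared increases in a few and a median difference between depots of -0.19 that turned to 0.04 after median centring. Scd2, a desaturase gene that introduces a double bond into stearate, went from 5236 to 11800.3 in epididymal and from 4817 to 11040.2 in subcutaneous fat, 2.25-fold and 2.29-fold, and its second probe set was higher by 1.88 and 2.06. Its relative Scd1, the main desaturase gene of adipocytes, differed by -0.15 and 0.04. Mogat2, which acylates monoacylglycerol, went from 311 to 1032 and from 200.4 to 433, 3.32-fold and 2.16-fold. Elovl6, the elongase gene of saturated fatty acids, went from 1685 to 2454 and from 1991 to 5367, 0.54 against 1.43, so the subcutaneous KO array stood apart. A second Elovl6 probe set gave 0.57 and 1.41. Acss2, the acetyl-CoA synthetase gene that uses acetate, changed by 0.41 and 0.91. Pnpla3, an acyltransferase and lipase gene, was 1.56-fold and 2.00-fold higher. Acaca, the acetyl-CoA carboxylase gene that commits carbon to fatty acids, changed by -0.38 in epididymal and 0.17 in subcutaneous KO. In limma with the trend, 5 of the 29 members rose (Mogat2, Scd2, Pnpla3, Acss2 and Elovl6) and 2 fell (Dgat1 and Acacb), against 0.548% and 0.526% of all genes. The enzyme genes Dgat1 and Acacb changed by -0.50 and -1.05 in epididymal and by -0.50 and -0.50 in subcutaneous KO.

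Adipocyte identity genes were close to all genes as a list, with medians of -0.11 and 0.02 and a median difference of -0.09 that turned to 0.13 after median centring. Lep, Sfrp5, Mest and Npr3 were called higher by limma with the trend (adjusted p between 0.000818 and 0.0307), and Insr, the insulin receptor gene, lower (adjusted p = 0.035). Insr went from 2498 to 1753 in epididymal and from 2629 to 1632 in subcutaneous fat, and both KO arrays were dimmer than both WT arrays. Pparg, the regulator of adipocyte formation, changed by -0.21 and -0.28, within the SD between probe sets in each depot.

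Macrophage genes parted between the depots, higher in epididymal KO and lower in subcutaneous KO. Of 29 members, all measured, 24 were higher in epididymal KO (against 46.8% of all genes), 27 were lower in subcutaneous KO (against 47.4%), and 22 were both (against 17.3%). The median change was 0.23 in epididymal and -0.34 in subcutaneous fat, a difference above 0 in 27 members (against 44.7% of all genes) and a median difference of 0.63 that lay 0.59 to 0.70 above that of all genes under every floor, scaling and choice of probe set tried. In WT the list was brighter in subcutaneous fat for 24 of 29 members, with a median gap (epididymal minus subcutaneous) of -0.42, and in KO for 11, with a median gap of 0.21. Few single members were large, with 6 of 29 at 2-fold or more in the difference between depots, against 1.53% of all genes, and 0 of the 29 were called by limma with or without the trend.

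Among receptors and surface markers, Adgre1, which encodes the macrophage marker F4/80, went from 1421 to 1841 in epididymal and from 1588 to 1113 in subcutaneous fat. The subcutaneous KO array was the lowest and the epididymal KO array the highest of the 4. Mrc1, the mannose receptor gene of tissue macrophages, went from 3408 to 4099.6 and from 5304 to 3637, changes of 0.27 and -0.54. Fcgr1, an immunoglobulin receptor gene, changed by 0.20 and -1.08, but its second probe set gave a difference of -0.45. Ccr2, the receptor through which monocytes enter tissue, changed by 0.51 and -0.51, and Trem2, a lipid-sensing receptor gene, by 0.23 and by -0.80 or more, its subcutaneous KO signal being under the floor. The complement genes C1qa, C1qb and C1qc, made largely by macrophages, went together, by 0.37, 0.37 and 0.34 in epididymal and by -0.53, -0.46 and -0.33 in subcutaneous fat. Of the chemokines, Ccl2, which recruits monocytes, went from 295 to 672 in epididymal fat and 229.8 to 241 in subcutaneous fat, and Ccl7 from 177 to 362 and 255 to 216. Ccl8 was brightest in subcutaneous WT, from 11797 to 6583, and went from 2128 to 2597 in epididymal fat. Only Mertk and Timd4 had differences below 0, and Gpnmb, a gene of lipid-laden macrophages, was lower in both depots, with changes of -0.65 and -0.74.

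Extracellular matrix genes divided the same way. Of 38 members measured, 29 were higher in epididymal KO (against 46.8% of all genes) and 24 were lower in subcutaneous KO (against 47.4%). Both held for 16 of them (against 17.3%). The medians were 0.34 and -0.17, a median difference of 0.44 that lay 0.41 to 0.51 above all genes under every setting tried. Postn, which encodes the matrix protein periostin, went from 4993 to 6849 in epididymal and from 9921 to 4875 in subcutaneous fat. Subcutaneous WT was the brightest of its 4 arrays, while subcutaneous KO was the lowest. Col14a1, the gene of a fibril-associated collagen, went from 1273 to 2522 and from 2174 to 1341, changes of 0.99 and -0.70, and its second probe set gave a difference of 1.24. Timp1, a metalloproteinase inhibitor gene, changed by 0.52 and -1.02, and the fibronectin gene Fn1 by 0.41 and -0.65. These were the 4 of 38 past 2-fold in the difference between depots (background 1.53%). The collagen VI genes Col6a1, Col6a2 and Col6a3 were higher in epididymal KO by 0.49, 0.53 and 0.66 and differed by -0.08, 0.04 and -0.29 in subcutaneous KO. The abundant matrix genes Sparc and Dcn had differences of 0.02 each. Mmp2, a gelatinase gene, fell in limma with the trend (adjusted p = 0.0185), from 1341 to 883 and from 4938 to 2350.1, and Ncan was the member that rose.

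Fibroblast and precursor genes were lower in subcutaneous KO for 20 of 25 members (median -0.32, against 47.4% of all genes lower) and mixed in epididymal KO (median -0.06, which turned to 0.04 after median centring). Fndc1 changed by 0.76 and -0.56, a difference that turned to -0.10 with the mean of its probe sets. Pi16, a marker of early adipocyte precursors, went from 802 to 1436 in epididymal and from 4304 to 3780.2 in subcutaneous fat. Pdgfra, the receptor gene that marks precursors, was lower in both, with changes of -0.38 and -0.72. Fmo2, a monooxygenase gene, went the other way, by -0.23 and 0.79. Beside the macrophage, matrix and fibroblast lists, the list of seminal vesicle and epididymis genes also had a positive median difference between depots, 1.42, with summed signals of 5955 in epididymal WT, 4233 in epididymal KO, 10496 in subcutaneous WT and 2544 in subcutaneous KO. Its part in those 3 lists was not tested.

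**Figure D3:**
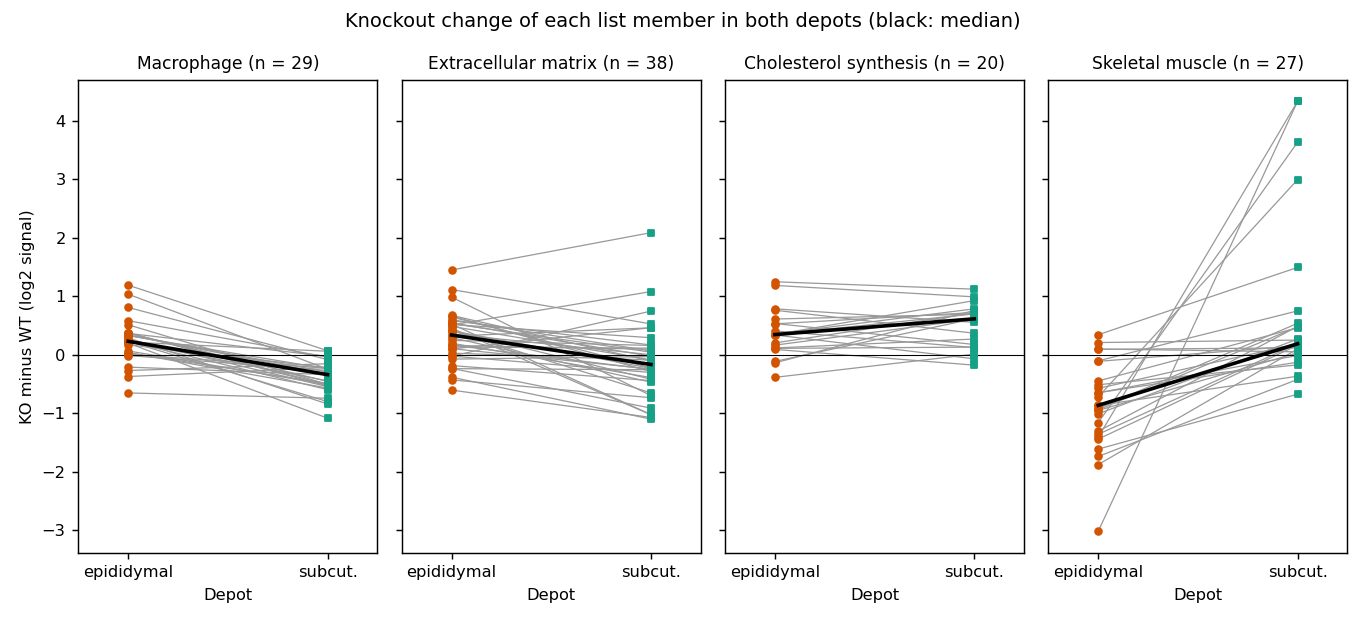
KO minus WT log2 change of each measured member of 4 gene lists, with epididymal fat at the left and subcutaneous fat at the right of each panel, lines joining the same gene, and the median in black. The medians fall from 0.23 to -0.34 for macrophage and from 0.34 to -0.17 for matrix genes, stay above 0 in both depots for cholesterol synthesis (0.35 and 0.61), and go from -0.86 to 0.19 for skeletal muscle, where 4 genes lie near 3 or above in subcutaneous fat.

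Thermogenic genes were lower in epididymal KO and mixed in subcutaneous KO. Of 21 members measured, 18 were lower in epididymal KO (median -0.47, against 53.2% of all genes lower). In subcutaneous KO 10 were lower (against 47.4%), with a median of 0.04 that turned to -0.08 after median centring. The median difference was -0.54, which relative to all genes was -0.50 to -0.37 under every setting tried. Cidea, a lipid droplet gene of brown and beige adipocytes, went from 4444 to 2983 in epididymal and from 3153 to 3949 in subcutaneous fat. The order of the genotypes was thus opposite in the depots. Acot11, a thioesterase gene induced by cold, changed by -1.04 and 0.34, Fabp3, a fatty acid binding protein gene of muscle and brown fat, by -0.93 and 0.18, and Ppargc1a, a coactivator of mitochondrial genes, by -0.77 and -0.13. Esrrg, an oestrogen-related receptor gene of oxidative tissue, went from 127 to 87.8 and from 52.8 to 178. Those with a difference of at least 2-fold below 0 were Esrrg, Acot11 and Fabp3, 3 of 21 (background 3.61%).

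Of the 21, 9 were lower in epididymal and higher in subcutaneous KO (against 23.1% of all genes). Another 9 were lower in both (against 30.1%). Ucp1, the uncoupling protein gene, was among the latter. It went from 6649 to 4783 in epididymal and from 2934 to 1428 in subcutaneous fat, lower in both KO arrays, and fell in limma with the trend (adjusted p = 0.0307, lower in 2 of 2 depots). Slc27a2, a fatty acid transporter gene, was likewise lower in both, with changes of -0.47 and -1.66. Otop1, a proton channel gene, rose in that fit (adjusted p = 0.0301), from 278 to 500.5 and from 367 to 1284.

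Fat breakdown genes had modest differences whose side depended on the scaling. Of 26 fatty acid oxidation genes, 6 were higher in epididymal KO (median -0.14, against 46.8% of all genes) and 11 in subcutaneous KO (median -0.01, against 52.6%), and these became 11 and 7 after median centring, where the median difference turned from -0.14 to 0.08. Acaa2 and Hadhb, enzymes of the last steps of beta-oxidation, changed by -0.24 and -0.37 in epididymal and by 0.37 and 0.13 in subcutaneous KO. Ehhadh, a peroxisomal enzyme gene, and Slc27a1, a fatty acid transporter gene, fell in limma with the trend (adjusted p = 0.0272 and 0.0343, lower in 2 of 2 depots), Ehhadh from 1769.9 to 1168 and from 1784 to 804. Of 18 lipolysis and lipid droplet genes, 3 were higher in epididymal KO (against 46.8% of all genes) and 8 in subcutaneous KO (against 52.6%). These became 7 and 2 after median centring, where the median difference turned from -0.10 to 0.12. Plin5, a lipid droplet protein gene of oxidative tissue, went from 796 to 503 in epididymal and from 578 to 779 in subcutaneous fat, opposite in order. The lipase gene Pnpla2 changed by -0.47 and -0.23, and Lipe, the hormone-sensitive lipase gene, by -0.16 and 0.11. Hcar1 was the member that fell in limma with the trend (adjusted p = 0.00868).

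Mitochondrial and glucose-using genes had small median differences of the same sign as the thermogenic list on the deposited scale. Of 67 oxidative phosphorylation genes, 48 were lower in epididymal KO (against 53.2% of all genes) and 50 higher in subcutaneous KO (against 52.6%). Both held for 35 of them (against 23.1%), with medians of -0.08 and 0.06. Both majorities turned after median centring, where 40 of 67 were higher in epididymal KO and 15 in subcutaneous KO, with medians of 0.02 and -0.07. On the deposited scale all 67 changes were under 2-fold. The median difference of -0.12 turned to 0.10 after median centring and relative to all genes was -0.12 to -0.05 under every setting tried. Of 19 tricarboxylic acid cycle genes, 18 had a difference below 0 (against 55.3%), with a median of -0.20 that turned to 0.03 after centring, where 12 were above 0. Idh2, a mitochondrial isocitrate dehydrogenase gene, went from 2353 to 2003 and from 1966 to 2362, and Pdhb, of the pyruvate dehydrogenase complex, changed by -0.13 and 0.26. Of 18 glycolysis genes, 17 were higher in subcutaneous KO (median 0.26, against 52.6% of all genes) and 6 in epididymal KO (median -0.07, against 46.8%), and 12 and 10 after median centring. Slc2a4, the insulin-responsive glucose transporter gene, changed by -0.41 and 0.03.

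Skeletal muscle genes lay on the same side as these energy lists and were larger. Of the 34 genes in the muscle list, 27 were measured in both depots. A difference below 0 was found for 26 of the 27 (against 55.3% of all genes). The medians were -0.86 in epididymal and 0.19 in subcutaneous KO. Summed signals of the 33 list genes on the array were 15055 in epididymal WT, 10386.5 in epididymal KO, 98606 in subcutaneous WT and 113712 in subcutaneous KO. In that order, 26, 20, 27 and 32 members were above the floor. In epididymal KO the defining genes Myh1, Mb, Ttn and Neb were at or under the floor, while Acta1 and Ckm were above it on all 4 arrays. Several genes of the thermogenic and metabolic lists, among them Fabp3, Cox8b, Pdk4 and Eno3, are also expressed in muscle. The part of muscle RNA in the thermogenic and energy lists was not tested.

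Clock and glucocorticoid-responsive genes also differed by depot. Of 17 circadian genes, 13 were lower in epididymal KO (median -0.27, against 53.2% of all genes) and 12 higher in subcutaneous KO (median 0.09, against 52.6%, and -0.02 with 7 of 16 higher after median centring), with a median difference of -0.33. The clock repressor gene Cry1 went from 522 to 379 in epididymal and from 254 to 524 in subcutaneous fat. The clock output genes Dbp, Per3 and Hlf changed by -0.79, -0.94 and -0.27 in epididymal and by -0.25, -0.33 and 0.39 in subcutaneous KO. Nfil3, a repressor that counters Dbp, changed by 0.36 and -0.98. The hour of sampling is not given in the labels, and its part was not tested.

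Of 17 glucocorticoid-induced genes, 14 were higher in subcutaneous KO (median 0.45, against 52.6% of all genes higher) and 8 in epididymal KO (median -0.04, against 46.8%, and 0.06 with 10 higher after median centring). Tsc22d3 and Mt2, genes of a leucine zipper protein and a metallothionein, were higher in both, Mt2 from 5182 to 10436 and from 3559 to 6033, and rose in limma with the trend together with Cdkn1a (adjusted p = 0.0393, 0.00547 and 0.00161). Errfi1, a feedback inhibitor of growth factor receptors, fell (adjusted p = 0.0308), by 0.71 and 0.51 on the log2 scale. Fkbp5, a co-chaperone of the glucocorticoid receptor, went from 2786 to 2139 in epididymal and from 1198 to 2130.1 in subcutaneous fat, and Zbtb16, a zinc finger gene, changed by -0.45 and 0.43. For Fkbp5 the second probe set was higher in both depots, by 0.44 and 0.79.

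Cell cycle genes were higher in epididymal KO for 22 of 28 members (median 0.30, against 46.8% of all genes) and in subcutaneous KO for 18 (median 0.13, against 52.6%). After median centring the subcutaneous count was 15 and its median 0.0081. Ube2c, of the ubiquitin system that ends mitosis, went from 251 to 541 in epididymal and from 375 to 481 in subcutaneous fat. Birc5 and Ccna2, of chromosome segregation and cyclin A, changed by 0.88 and 0.76 in epididymal and by 0.12 and 0.10 in subcutaneous KO. Mcm2, a helicase gene, had a difference of -3.02, while its second probe set gave 0.46. Cdkn1a was the member called by limma with the trend.

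The 12 genes at least 2-fold lower in epididymal and higher in subcutaneous KO included 6 genes of striated muscle. Myh1, Myh2 and Mb, which encode fast and intermediate myosin heavy chains and myoglobin, are in the muscle list, and Tcap, Myl3 and Cox6a2 are known as genes of striated muscle. Myh1 went from 510.2 to 55.5 in epididymal and from 178 to 3577 in subcutaneous fat, at least 8.10-fold lower and 20.2-fold higher. Mb went from 167 to 56.5 and from 81.1 to 1637, and Myh2 from 141 to 20.8 and from 54.9 to 782. The subcutaneous KO array stood above the other 3 for all 3 genes. In the muscle list 21 of 27 members were higher in subcutaneous KO (against 52.6% of all genes). By 2-fold or more, 5 of the 27 were higher (against 2.16% of genes measured in subcutaneous fat). Acta1, the skeletal actin gene, went from 12807 to 14589 in subcutaneous fat, Ckm, the muscle creatine kinase gene, from 5603 to 6279, and Myh4, a fast myosin gene, from 11136 to 8318. Mybpc1, a gene of slow muscle myosin binding protein, and Myhas, an antisense transcript of the fast myosin cluster, went with Myh1, at 71.8 to 573 and 92.4 to 554 in subcutaneous fat. Whether the Myhas probe set tells that transcript apart from its overlapping neighbours was not tested.

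Of the epithelial list, Krtap12-1 was in the opposite set. Krtap12-1, a keratin-associated protein gene of hair, went from 244 to 66.3 and from 32.6 to 351, and 9 of 10 epithelial genes measured had a difference below 0 (against 55.3% of all genes), with a median of -1.05. With a floor of 120, which left 7 of them, that median was -0.57. The epididymal median of -0.67 became -0.26 with a floor of 32, and -0.28 and -0.22 after quantile normalization and median centring. Krt8 and Krt18, keratins of simple epithelium, went from 1135 to 775 and 623 to 359 in epididymal and from 56.6 to 159.9 and 66 to 211 in subcutaneous fat. Neither passed 2-fold in epididymal fat, so both lie outside the opposite set. Both are also in the mesothelial list, which had a median difference of -0.46 over 12 genes. The part of mesothelium in the epithelial list was not tested. Lcn2 went from 1315 to 531 and from 42.7 to 126. The rest were Bex1, a small adaptor protein gene of neurons (581 to 183 and 60 to 148), Mlph, of pigment granule transport (138 to 58.9 and 66.5 to 134), Gipc2 (199 to 98.3 and 64.4 to 147) and the uncharacterised gene 3110021A11Rik, whose second probe set gave a difference of -0.27. Of the 12 genes, 3 were above the floor on all 4 arrays.

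In the other direction, 10 of 10 seminal vesicle and epididymis genes measured had a difference above 0 (against 44.7% of all genes). Their medians were -0.50 in epididymal and -1.74 in subcutaneous KO. Svs4, a seminal vesicle secretory protein gene, went from 1851 to 1562 in epididymal and from 3774 to 718 in subcutaneous fat, Svs5 from 1722 to 1062 and 3044 to 600.0, and Svs2 from 523 to 241 and 898 to 133. Subcutaneous KO had the lowest signal of the 4 arrays for each of the 3. These 3 genes were above the floor on all 4 arrays, and 10, 9, 10 and 9 members of the list were above it in epididymal WT, epididymal KO, subcutaneous WT and subcutaneous KO. Leaving the muscle and seminal vesicle lists out, a choice made after seeing the data, left 189 genes with a difference of at least 2-fold above 0 and 449 below.

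Several genes outside these cell type lists had large positive differences. Sema3e, the gene of a secreted guidance protein, went from 76.3 to 191 in epididymal and from 325 to 169 in subcutaneous fat, changes of 1.33 and -0.94. The WT depots differed by -2.09 and the KO depots by 0.18, so the depot gap was wide in WT and narrow in KO. Ccn3, a matricellular protein gene of the Ccn family, went from 513 to 1228 and from 367 to 235, and a second probe set gave a difference of 1.96. Slfn4 and Ifi204, interferon-inducible genes of myeloid cells, changed by 0.80 and 0.33 in epididymal and by -1.16 and -1.59 in subcutaneous KO. All 25 measured interferon-stimulated genes together had medians of -0.08, which turned to 0.02 after median centring, and -0.27. Their median difference was 0.07. Past 2-fold, 1 of the 25 had a difference above 0 (background 1.53%) and 2 had one below 0 (background 3.61%). Tmem97, which encodes a membrane protein of sterol handling, went from 142 to 278 and from 162 to 38.3, the subcutaneous KO array being at or under the floor. P2ry10b and Rrp9, a receptor-like and a ribosome assembly gene, changed by 0.50 and 0.67 against -1.37 and -1.16.

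Lymphoid genes differed by depot more than by genotype. Of 15 B and plasma cell genes measured, 11 were lower in epididymal KO (median -0.58, against 53.2% of all genes) and 8 in subcutaneous KO (median -0.04, against 47.4%, and 0.015 after quantile normalization). Jchain, the joining chain gene of secreted antibodies, went from 1579.8 to 364 in epididymal and from 4733 to 6494 in subcutaneous fat. All 15 were brighter in subcutaneous fat in both genotypes, with median gaps of -3.11 in WT and -3.59 in KO. T and NK cell genes had medians of -0.22 and -0.21, and mast cell genes of -0.45 and -0.49, so the medians of both lists lay below 0 in both depots. The mast cell carboxypeptidase gene Cpa3 went from 606 to 381 and from 2289 to 1168.

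**Figure D4:**
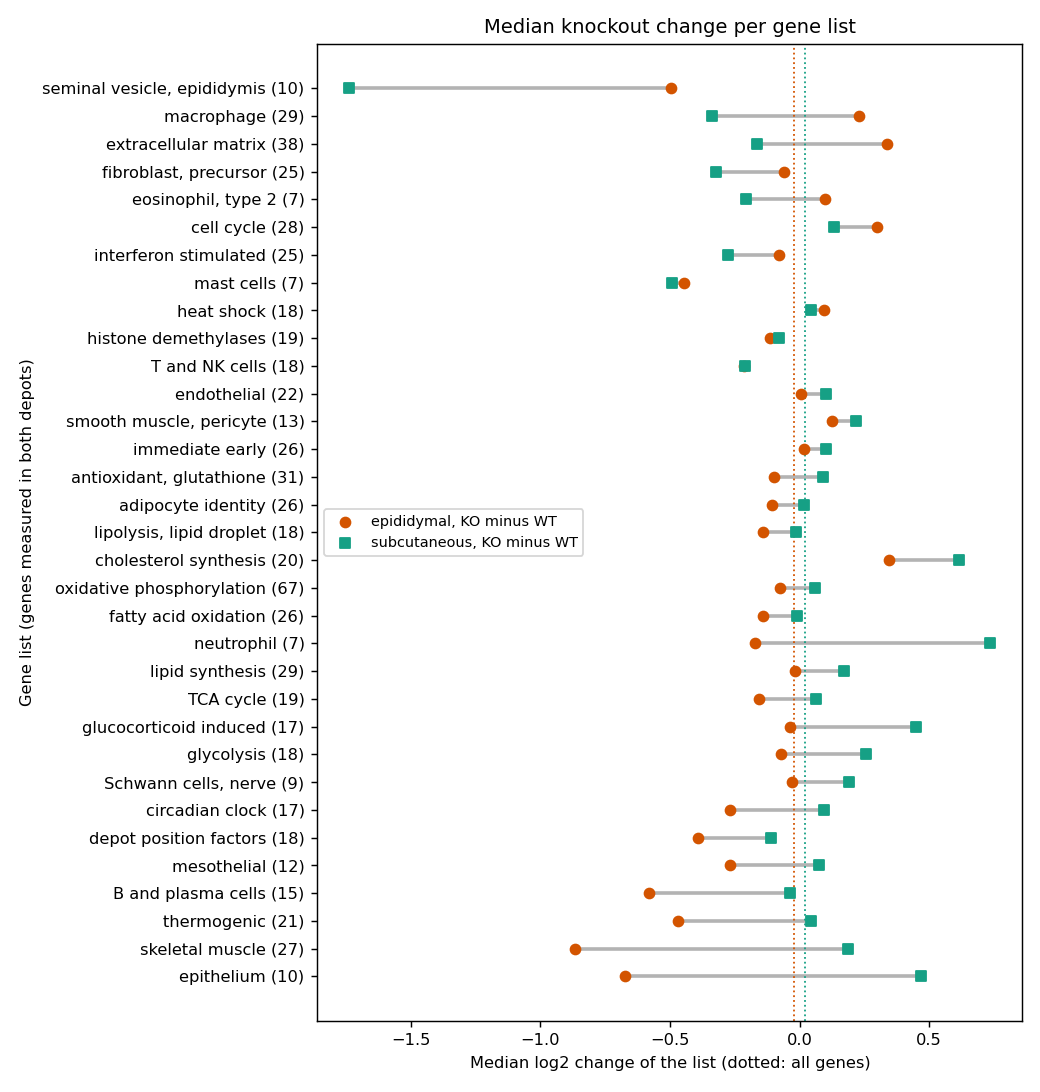
Median KO minus WT log2 change of each gene list with at least 7 measured members (number in brackets), circles for epididymal and squares for subcutaneous fat, sorted by the median difference between depots, with the medians of all genes as dotted lines. Macrophage and matrix genes have the epididymal median at the right of the subcutaneous one, cholesterol synthesis lies at 0.35 and 0.61, and thermogenic, muscle and epithelial genes have the epididymal median at the left.

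Seen as a gap between depots, the 2 genotypes had similar numbers of genes that differed at least 2-fold between epididymal and subcutaneous fat, 953 in WT and 951 in KO. Of these, 531 were on the same side in both genotypes and 13 were on opposite sides. In WT 313 were brighter in epididymal fat and 640 in subcutaneous fat, and in KO 209 and 742. These gap counts were made on the deposited scale only. The share of 2-fold differences on the positive side turned with the scaling, from 29.7% to 51.9% (quantile normalization) and 59.7% (median centring). Positional genes of development, which mark depots by their place in the body, had a median change of -0.39 in epididymal and -0.11 in subcutaneous KO. Shox2, which marks subcutaneous fat, stayed brighter there, at 1095 to 1429 against 116 to 90 in epididymal fat. Sim1, a transcription factor gene of the same list, went from 75.7 to 86.2 and from 83.4 to 243, so the subcutaneous KO array stood above the other 3.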

How the data were processed

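Total RNA of white fat was measured on 1 Affymetrix array per depot and genotype, 4 of the 6 arrays of the series. The deposited values are intensity values (MAS5 signals) that the authors made with MAS5 in Affymetrix Expression Console, per the submitters' processing notes, of which the labels give no version. The 2%-trimmed mean of each array was 500.003. Of 45037 probe sets that are not controls, 34945 had 1 gene symbol and gave 18193 genes, with symbols updated from RefSeq (GRCm38.p6).

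Signals under 63 were raised to 63 and log2 was taken, with the probe set of highest mean log2 signal per gene. The difference between depots was the epididymal minus the subcutaneous KO minus WT change, counted at 2-fold over genes above 63 on at least 1 array of each depot. The genotype effect over both depots was tested with limma 3.58.1 in R 4.3.3 (depot and genotype as terms, genes with 2 or more arrays above 63, Benjamini-Hochberg adjustment), with an intensity trend as an alternative. Python 3.11.15, numpy 2.4.6, pandas 2.3.3 and matplotlib 3.10.9 were used, and both scripts were tested on simulated data. With 1 array per group, the number of arrays limits the precision.

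Members and gene lists were chosen with earlier results of these data known. Genes named by rule had a brightest signal of at least 126 and no second probe set changed the other way by more than 0.3, and were up to 15 per direction with the largest shared change, every gene opposite by 2-fold, 10 per direction with the largest difference, up to 4 per list, and Kdm4b. Genes named beyond that rule, among them Lep, Scd2, Fdps, Mogat2, Mtarc1, Oxtr, Nppb, Sqle, Ucp1, Hmgcs1, Idi1, Lss, Phf8, Plin5, Ehhadh and 3110021A11Rik, were chosen after their values were seen. Alternatives were floors of 32 and 120, quantile normalization, median centring, other choices of probe set, filters and fold thresholds.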

Additional observations from a re-analysis of the deposited data

Results flagged for a closer look

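In 12 genes the epididymal KO array was at least 2-fold below its WT array while the subcutaneous KO array was at least 2-fold above its own, so each depot's single pair of arrays went the opposite way. The difference was not tested, because there is 1 array per depot and genotype. The difference of the log2 changes, epididymal minus subcutaneous, was -7.35 for Myh1, -5.74 for Mb and -4.79 for Myh2, all of the skeletal muscle list. It was -2.82 for Cox6a2, -2.78 for Tcap and -2.74 for Myl3, which are also known from striated muscle. It was -4.36 for Krtap12-1, a hair gene, and -2.90 for Bex1. It was -2.31 for Lcn2, -2.20 for Gipc2 and -2.14 for Mlph. It was -2.52 for 3110021A11Rik, which is named only after its values were seen because its second probe set gave -0.27. Skeletal muscle genes as a list had summed signals of 15055 and 10386.5 in epididymal WT and KO and of 98606 and 113712 in subcutaneous WT and KO. The part of muscle RNA in these values was not tested.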

How the results depend on the processing

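No paired analysis was possible because each group has 1 array and the labels give no replicate numbers, and for the same reason no replicate could be left out. The fold of a gene with 1 dim array depends on the floor. With a floor of 32, epididymal KO had 275 genes higher and 393 lower, subcutaneous KO 815 and 195, both depots 69 higher and 25 lower, opposite genes numbered 2 (epididymal higher) and 35 (epididymal lower), and differences between depots 356 above and 1051 below. With a floor of 120 these were 67, 116, 118 and 64, with 19 higher in both, 3 opposite and differences of 111 and 173. Quantile normalization gave 2 genes higher in epididymal and lower in subcutaneous KO and differences of 310 and 287. Median centring gave 177 higher and 169 lower in epididymal and 165 higher and 146 lower in subcutaneous KO, 2 higher in epididymal and lower in subcutaneous KO, differences of 401 and 271, and 92 genes higher and 54 lower in limma, where an intensity trend gave 73 and 70. The mean of all probe sets gave 102 lower in epididymal and 192 higher in subcutaneous KO, 6 opposite, and differences of 124 and 287. Genes above the floor on all 4 arrays gave 110, 144, 21 higher in both, 3 opposite and 286 below. At 1.5-fold the counts were 579 and 876, 1202 and 536, 181 and 109 in both, 22 and 90 opposite, and 759 and 1423. At 3-fold they were 12 and 43, 35 and 15, 3 and 1 in both, 2 opposite, and 21 and 109. Without the muscle and seminal vesicle lists, an alternative chosen after seeing the data, the differences were 189 and 449.

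Of 1050 list medians under the alternatives, 84 changed sign, 62 of them from a value within 0.1 of 0, and the cause was not tested. The rest follow, with Fndc1. Neutrophil genes, 7 on the deposited scale with medians of 0.74 in subcutaneous KO and -0.14 for the difference, gave -0.28 in subcutaneous KO and a difference of 0.0481 with a floor of 120, -0.58 and 0.0814 over genes above the floor on all 4 arrays, and a difference of 0.0810 after median centring. Schwann cell genes gave a difference of 0.0408 after quantile normalization, -0.0495 in subcutaneous KO and 0.13 after median centring, and -0.0423 and 0.0771 over genes above the floor on all 4 arrays. Median centring turned the difference to 0.11 for cholesterol synthesis, 0.0820 for fatty acid oxidation, 0.0257 for glucocorticoid-induced genes, 0.0355 for lipid synthesis, 0.10 for oxidative phosphorylation and 0.0270 for the tricarboxylic acid cycle, and the subcutaneous change to -0.0217 for endothelial and -0.0223 for immediate early genes. The mean in place of the median gave 0.0559 for adipocyte genes in epididymal fat, and in subcutaneous fat 0.0290 for positional, -0.00861 for endothelial and 0.22 for eosinophil genes. Fndc1 gave a difference of -0.10 with the mean of all probe sets.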
